A study of Mus musculus with 6 samples.

Results

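Kinesins are motor proteins that use ATP to move along microtubules or to take microtubule ends apart. One set of them builds and drives the mitotic spindle in dividing cells. Another set carries vesicles, organelles and mRNA through the cytoplasm, and a further set works in cilia or at microtubule ends. The kinesin genes were taken as the protein-coding genes whose mouse symbol was Kif with a number, or Kifc with a number, and 42 of the 47069 genes in the count table met this rule. They lay on 16 chromosomes. The rule uses gene symbols alone.

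The values came from bulk RNA-seq of LβT2, an immortalized mouse cell line derived from pituitary gonadotropes, the cells that secrete the gonadotropins. Every culture was at passage 14 and received gonadotropin-releasing hormone (GnRH) at 2 nM over 40 min, so no comparison with unstimulated cells was made. One group of 3 libraries was prepared from cells lysed directly, called fresh. The other group of 3 was prepared from cells kept at least 4 days at 4°C in RNA-Best, a reagent for storing whole cells, before lysis. The comparison addressed how closely transcript levels in stored cells matched those in fresh cells. Fresh libraries held 14477304 to 47438746 counts and RNA-Best libraries 4909418 to 11999363, so every fresh library was the deeper. Pairs of libraries within a group differed by more than sampling noise, with a chi-square of 1.08 to 2.21 per gene. Of 7 gonadotrope markers, 6 were detected in every library and *Fshb* was at 0 in all. Their summed level was 3600 to 3650 CPM (counts scaled to a common library total) in fresh libraries and 3040 to 3110 CPM in RNA-Best libraries. *Cga* made up most of the drop in the sum (mean 1820 and 1420 CPM), while *Gnrhr* was higher in RNA-Best (120 and 163 CPM, adjusted p = 5.66e-11, edgeR). Of 10 markers of other cell types, 2 were detected in every library (*Pecam1* and *Tshb*), 3 were at 0 in all (*Ptprc*, *Prl* and *Pou1f1*), and the sum was 43.2 to 44.3 CPM in fresh and 39.6 to 42.1 CPM in RNA-Best libraries. Nearly all of it was *Pecam1* (mean 42.7 and 38.8 CPM), and *Tshb* was higher in RNA-Best (0.915 and 1.63 CPM, adjusted p = 0.0035, edgeR). In bulk samples, fewer cells of a type and less RNA per cell cannot be told apart.

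The members were divided by role into 14 mitotic kinesins, 14 kinesins of cargo transport, and 14 kinesins of cilia, microtubule ends and other functions. Of the 42 genes, 36 passed the filter on low counts. *Kif2b*, a testis-enriched relative of the microtubule depolymerase *Kif2c*, and *Kif12* had 0 counts in all 6 libraries, which allows 3 counts, or 0.0636 CPM in the deepest library and 0.61 CPM in the shallowest. *Kif21a* had 1 count in each fresh library and 0 in each RNA-Best library. *Kif21b*, *Kif6* and *Kif28* had at most 11 counts in any library. The edgeR fit without the filter took in the last 4 of these 6 genes and called none of them, and a difference was not detectable at this depth.

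Promoters of most mitotic kinesins held a short run of letters that was found in few promoters of the other members. Promoters were taken from RefSeq (GRCm38.p6) as 250 bases before and 50 bases from the start site, and 33 of the 42 members had an entry. *Kif5a*, *Kif5b*, *Kif13b*, *Kif19a*, *Kif20a*, *Kif21b*, *Kif28*, *Kifc2* and *Kifc3* had no entry. The letters TTTGAA form the core of the cell cycle genes homology region, an element known from promoters of genes expressed late in the cell cycle. Searched on both strands, TTTGAA occurred in 11 of 13 promoters of mitotic kinesins (84.6%), with *Kif2b* and *Kif18a* the exceptions. It occurred in 1 of 9 promoters of cargo kinesins (11.1%), in 2 of 15 of the cilium and other list (13.3%), and in 17.9% of all 32851 promoters. The 9 cargo promoters came from 7 genes. Some genes have several promoters that overlap, and those of the close copies *Kifc1* and *Kifc5b* share long runs of letters, so promoters are not independent. Within 30 bases of the start site on either side, a distance chosen after the sites were seen, the letters were found in 8 of 13 mitotic promoters (61.54%), 0 of 9 cargo promoters, 1 of 15 of the cilium and other list, and 2.9% of all promoters. They were found there in 8 of 18 promoters (44.44%) of spindle and mitosis genes that are not kinesins. The following 30-base stretches show the site nearest the start site in each of these 8 promoters and that of *Kifc5b*, which began 30 bases after the start site. Each is in the direction of transcription, with this TTTGAA or its reverse complement TTCAAA in capitals, and a second site in *Kif20b*, 14 bases after the start site, is left in lower case.
*Kif11*, chr19:37376351-37376380, plus strand: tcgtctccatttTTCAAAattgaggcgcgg
*Kif15*, chr9:122951050-122951079, plus strand: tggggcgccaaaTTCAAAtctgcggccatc
*Kif22*, chr7:127042420-127042449, minus strand: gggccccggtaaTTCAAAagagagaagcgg
*Kif18b*, chr11:102925104-102925133, minus strand: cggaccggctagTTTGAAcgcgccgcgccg
*Kif20b*, chr19:34922353-34922382, plus strand: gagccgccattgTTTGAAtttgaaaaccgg
*Kif23*, chr9:61946780-61946809, minus strand: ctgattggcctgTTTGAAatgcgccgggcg
*Kif4*, chrX:100626072-100626101, plus strand: ctctgggatcaaTTTGAAacttggcggtta
*Kifc1*, chr17:33890615-33890644, minus strand: cggaggttgaaaTTCAAAagtggcgggtgt
*Kifc5b*, chr17:26917108-26917137, plus strand: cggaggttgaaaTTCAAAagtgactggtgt

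The variant TTTAAA was found in 2 of 13 mitotic promoters (15.4%), those of *Kif14* and *Kif2c*, against 13.2% of all promoters. The letters CCAAT, a box read by the factor NF-Y, were found on either strand in 9 of 13 mitotic promoters (69.2%) and in 37.4% of all promoters. They were found in 2 of 9 cargo promoters (22.2%), both of *Kif1b*, and in 6 of 15 promoters of the cilium and other list (40.0%). Among 20 spindle and mitosis genes that are not kinesins, TTTGAA was found in 14 of 18 promoters (77.8%) and CCAAT in 15 of 18 (83.3%). A match describes letters in this window and does not show a binding site.

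A second sequence bears on the counts themselves. *Kifc1*, a minus-end-directed motor that bundles spindle microtubules, has a close copy in *Kifc5b* on the same chromosome. Their coding sequences (2022 and 2016 bases) had 1984 of 2016 aligned bases in common, an identity of 98.41%, with a longest identical run of 268 bases. The 60-base coding stretch below was chosen because no other stretch away from alignment gaps held more differences. Its 4 differences are in capitals, and it lies at positions 54 to 113 of *Kifc1* and 51 to 110 of *Kifc5b* counted from the start codon.
*Kifc1*: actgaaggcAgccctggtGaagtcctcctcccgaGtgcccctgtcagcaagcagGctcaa
*Kifc5b*: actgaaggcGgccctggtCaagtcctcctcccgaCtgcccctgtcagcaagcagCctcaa
Of the 100-base windows in the longest coding transcripts, 23.74% of those of *Kifc1* and 21.17% of those of *Kifc5b* occurred in both genes. Both genes carried parts of counts, so how reads were divided between them affects their values, which are uncertain. Over the family, 12 members shared at least 1% of their windows with another gene and 29 shared none. Exons of *Kif3c* overlapped those of genes on the opposite strand over 40.72% of their length, and those of *Kif20a* over 29.3% (with *Cdc23*). Counting by strand is not stated, so whether reads of their antisense neighbours entered the counts of these genes is not known.

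Levels were compared between genes as CPM per kb of the longest annotated transcript, and on this scale the 3 highest were those of mitotic kinesins. In fresh libraries *Kifc1* had 49.5 ± 0.886 CPM per kb (SD, n = 3), *Kif22*, a chromosome-arm motor, 46.2 ± 0.678, and *Kif11*, the motor that pushes spindle poles apart, 41.1 ± 0.824. The ranges of these 3 genes did not overlap. *Kif19a*, which shortens cilia, followed with 32.1 ± 0.300 CPM per kb. *Kif2c* at 27.4 and *Kif23*, a component of the central spindle, at 27.3 CPM per kb overlapped in range. From *Kif4* at 25.4 down to *Kif20a* at 22.1 CPM per kb, each gene overlapped its neighbour in the order, and this stretch also held *Kifc5b*, *Kif3b*, *Kifc2* and *Kif5b*. The lowest of the tested genes was *Kif26b* at 0.0896 ± 0.0165 CPM per kb.

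**Figure D1:**
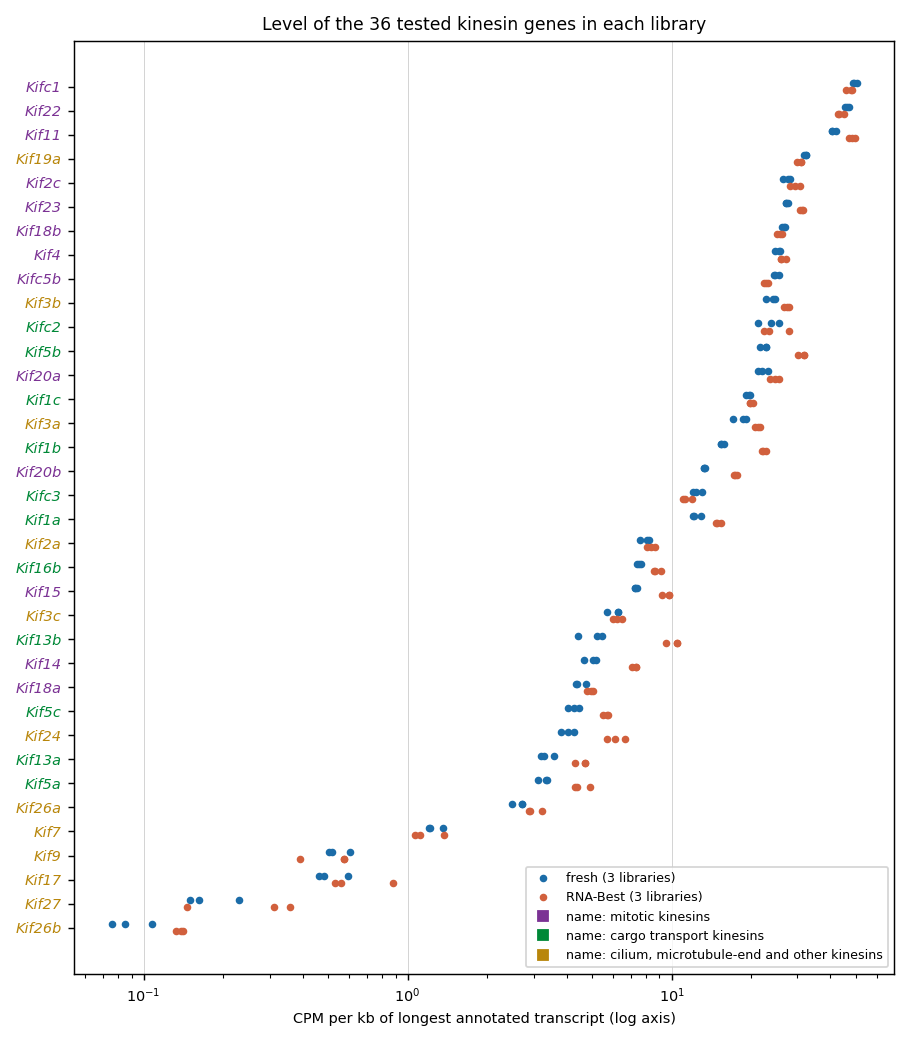
Level of each of the 36 tested kinesin genes in CPM per kb of the longest annotated transcript, on a log axis, with 1 point per library (3 fresh, 3 RNA-Best) and names coloured by role. Levels run from 0.0896 CPM per kb for *Kif26b* to 49.5 CPM per kb for *Kifc1* (fresh means), and *Kifc1*, *Kif22* and *Kif11* lead in both groups.

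Over all 14 members of each list, tested or not, the median level of the mitotic list was 25.1 CPM per kb in fresh and 25.2 in RNA-Best libraries. That of the cargo list was 6.29 in fresh and 9.5 in RNA-Best libraries, while the cilium and other list had 1.95 and 2.1. The ratio of the mitotic to the cargo median in fresh libraries was 3.99 ± 0.109 (SD, n = 3). This ratio includes the members that did not pass the filter, 3 in the cargo list and 1 in the mitotic list. Among tested members alone, the middle gene in fresh libraries was *Kif4* at 25.4 CPM per kb for the 13 mitotic genes. For the 11 cargo genes it was *Kif1a* at 12.4 CPM per kb. The order depended on the length used: for *Kif22*, whose longest annotated transcript is not coding, the level was 78.3 CPM per kb of its longest coding transcript, which put it first. Per kb of exonic length *Kif19a* ranked 3rd at 27.0 and *Kif11* 4th at 26.5 CPM per kb. In RNA-Best libraries *Kif11* ranked first at 48.2 ± 1.39 CPM per kb, ahead of *Kifc1* at 47.4 ± 1.33, and these differed by less than their spread. *Kif5b* stood 12th in fresh and 4th in RNA-Best libraries, at 31.3 CPM per kb in the latter.

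Across storage, most kinesin genes that differed were higher in RNA-Best. By edgeR's quasi-likelihood test with Benjamini-Hochberg adjustment over all 14736 tested genes, 19 of the 36 rose and 2 fell (*Kifc5b* and *Kifc3*) at an adjusted p under 0.05, and 15 did not pass. Of all tested genes, 50.8% were called, 26.0% as higher and 24.8% as lower. Without the filter on low counts the split was 17 higher and 5 lower, where 3256 of 27250 genes were higher and 4381 lower, with a median log2 fold change of -0.064. The split was 12 higher and 5 lower when gene length entered the fit as an offset. With every library thinned to 4909268 counts, 16 of 33 tested members rose and 0 fell by edgeR (1 lower at an unadjusted p under 0.05), where 2780 of 12993 genes rose and 2505 fell. The median log2 fold change (RNA-Best over fresh) was 0.19 for the 36 genes and -0.01 for all genes tested. Changes were small: 4 of the 21 called genes reached an absolute log2 fold change of 0.5. By glmTreat, edgeR's test against a minimum fold change, here 1.2-fold, 10 members rose and 0 fell (0 lower at an unadjusted p under 0.05), where 8.67% of all tested genes rose and 2.82% fell. In 26 of the 36 tested members the libraries of the groups did not overlap, with RNA-Best higher in 21 and lower in 5, against 57.9% of all tested genes, 29.0% in each direction.

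Of 13 tested mitotic kinesins, 7 rose, 1 fell (26.0% and 24.8% of all tested genes) and 5 did not pass, with a median log2 fold change of 0.14. The 2 most abundant of them per length, *Kifc1* and *Kif22*, did not pass. *Kifc1* measured 115, 116 and 119 CPM in fresh and 113, 114 and 108 CPM in RNA-Best libraries, where each gene's level is in CPM scaled by edgeR's TMM method. Its log2 fold change was -0.07 ± 0.04 (SE, adjusted p = 0.132, edgeR). *Kif22* measured 166, 163 and 168 CPM in fresh and 155, 153 and 161 CPM in RNA-Best libraries, with a log2 fold change of -0.07 ± 0.03 (SE, adjusted p = 0.0705, edgeR). *Kif22* was called lower in 5 of 17 alternative fits, such as that with an offset for GC content (-0.12, adjusted p = 0.00247, edgeR), and *Kifc1* in 1, without the filter on low counts (-0.11, adjusted p = 0.0161, edgeR). For both genes every RNA-Best library lay below every fresh library. *Kif11* measured 203, 196 and 195 CPM in fresh and 232, 239 and 226 CPM in RNA-Best libraries. It rose by 0.22 ± 0.03 on the log2 scale (SE, adjusted p = 2.58e-07, edgeR), and all RNA-Best libraries lay above all fresh ones.

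The largest rise among mitotic kinesins was that of *Kif14*, a motor of the midbody needed for cytokinesis. It measured 44.9, 46.4 and 41.7 CPM in fresh and 65.5, 65.5 and 63.6 CPM in RNA-Best libraries, which gave a log2 fold change of 0.52 ± 0.05 (SE, adjusted p = 1.93e-11, edgeR). The lowest RNA-Best library was well above the highest fresh library. *Kif20b*, which acts in the completion of cytokinesis, measured 74.0, 74.7 and 74.0 CPM in fresh and 96.8, 95.6 and 98.1 CPM in RNA-Best libraries, and rose by 0.39 ± 0.04 (SE, adjusted p = 1.55e-10, edgeR). *Kif15*, which helps *Kif11* keep the spindle bipolar, measured 35.3, 36.1 and 35.3 CPM in fresh and 44.7, 47.4 and 47.7 CPM in RNA-Best libraries, and rose by 0.39 ± 0.05 (SE, adjusted p = 7.13e-08, edgeR). The groups did not overlap for either gene. *Kif23*, *Kif20a* and *Kif18a* rose by 0.19, 0.16 and 0.14 on the log2 scale. The call of *Kif18a* (adjusted p = 0.0478, edgeR) was lost in 5 of 6 fits that each left out 1 library, with adjusted p up to 0.21.

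*Kifc5b*, the copy of *Kifc1*, was the mitotic kinesin that fell. It measured 64.5, 66.9 and 64.8 CPM in fresh and 59.9, 61.0 and 59.2 CPM in RNA-Best libraries, and the log2 fold change came to -0.13 ± 0.04 (SE, adjusted p = 0.0113, edgeR). The groups did not overlap, but the call was lost without fresh replicate 2 (adjusted p = 0.0515) and without RNA-Best replicate 3 (0.0878). With an offset for GC content *Kifc5b* was not called lower, and *Kif22* was the only member that was. *Kif2c*, *Kif4* and *Kif18b* had log2 fold changes of 0.08, 0.04 and -0.04 and did not pass.

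**Figure D2:**
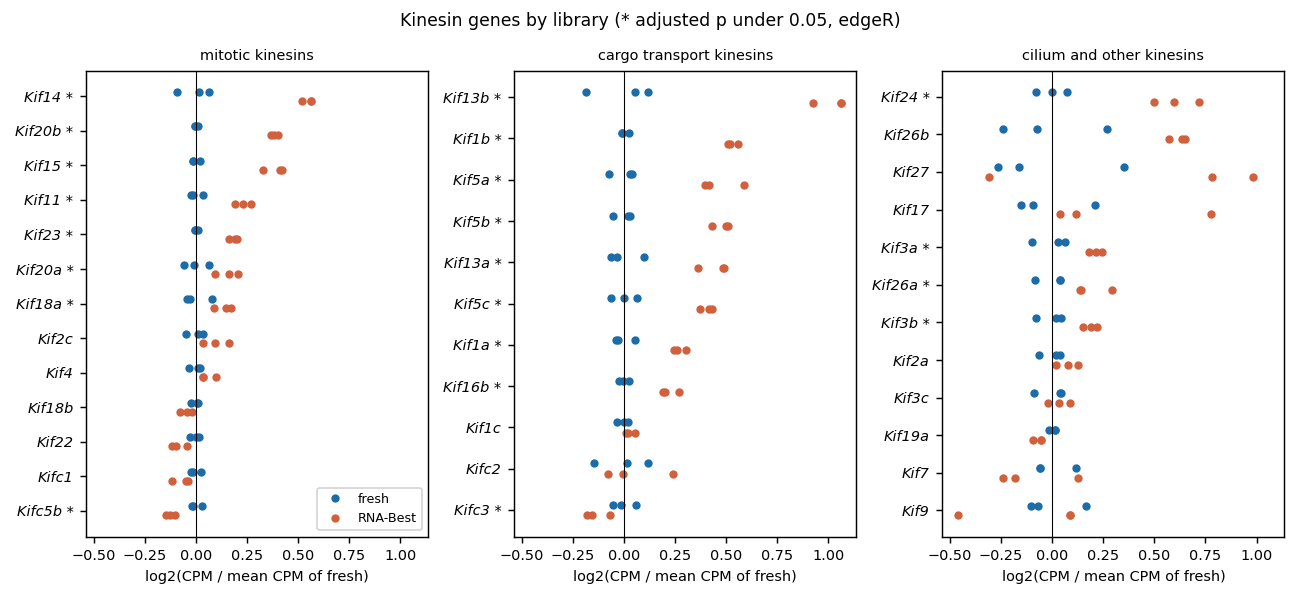
Log2 of the CPM of each library over the mean CPM of the fresh libraries, for the tested kinesin genes in 3 panels by role, with 1 point per library and an asterisk where the adjusted p was under 0.05 (edgeR). *Kif13b* stands farthest to the right, and *Kifc5b* and *Kifc3* are the genes with an asterisk whose RNA-Best points lie left of the fresh points.

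Of 11 tested cargo kinesins, 8 rose, 1 fell (26.0% and 24.8% of all tested genes) and 2 did not pass, with a median log2 fold change of 0.40. *Kif13b*, a plus-end motor of vesicles, had the largest change in the family. It measured 48.5, 46.4 and 39.3 CPM in fresh and 93.2, 84.8 and 93.2 CPM in RNA-Best libraries, which gave a log2 fold change of 1.0 ± 0.05 (SE, adjusted p = 1.75e-17, edgeR). Each RNA-Best library held far more than any fresh library. *Kif1b*, a carrier of mitochondria and of synaptic vesicle precursors, measured 162, 158 and 158 CPM in fresh and 234, 226 and 228 CPM in RNA-Best libraries, and rose by 0.53 ± 0.03 (SE, adjusted p = 3.82e-16, edgeR). The spread within each group was small beside the gap between them.

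All 3 genes of the conventional kinesin heavy chain, which moves many cargoes toward microtubule plus ends, rose. *Kif5b*, the widely expressed form, measured 138, 137 and 130 CPM in fresh and 191, 192 and 182 CPM in RNA-Best libraries (log2 fold change 0.47 ± 0.03 SE, adjusted p = 7.56e-14, edgeR). *Kif5a*, a form known from neurons, measured 19.6, 21 and 21.2 CPM in fresh and 30.9, 27.1 and 27.5 CPM in RNA-Best libraries (0.48 ± 0.07 SE, adjusted p = 1.77e-07, edgeR). *Kif5c*, the other neuronal form, had a log2 fold change of 0.40 (adjusted p = 2.49e-07, edgeR). None of the 3 genes had overlapping groups. In fresh libraries the level per length of *Kif5b*, 22.4 CPM per kb, was far above the 4.26 of *Kif5c* and the 3.27 of *Kif5a*.

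*Kif13a*, *Kif1a* and *Kif16b*, an endosome motor, also rose, by 0.43, 0.26 and 0.23 on the log2 scale. Paralogues of the family differed in size of change: *Kif1c*, related to *Kif1a* and *Kif1b*, measured 131, 128 and 133 CPM in fresh and 132, 133 and 136 CPM in RNA-Best libraries, with overlapping groups and a log2 fold change of 0.04 ± 0.03 (SE, adjusted p = 0.317, edgeR). The difference between paralogues was not tested. Among the minus-end-directed motors of this list, *Kifc2* varied most within its groups, at 68.5, 76.8 and 82.4 CPM in fresh and 75.6, 89.7 and 71.8 CPM in RNA-Best libraries (adjusted p = 0.582, edgeR). With an offset for GC content *Kifc2* was called higher (log2 fold change 0.15, adjusted p = 0.0182, edgeR). *Kifc3* measured 42.0, 44.2 and 40.9 CPM in fresh and 37.4, 40.5 and 38.1 CPM in RNA-Best libraries, and the log2 fold change came to -0.16 ± 0.05 (SE, adjusted p = 0.0155, edgeR). Its groups did not overlap, but the call was lost without fresh replicate 2 (adjusted p = 0.0898) or when RNA-Best replicate 1 (0.0858) or 3 (0.0895) was left out. With an offset for GC content *Kifc3* was not called lower.

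Of 12 tested kinesins of cilia, microtubule ends and other functions, 4 rose, 0 fell by edgeR, DESeq2 or limma voom (0 lower at an unadjusted p under 0.05 by edgeR), and 8 did not pass, with a median log2 fold change of 0.19. Of all tested genes, 26.0% rose and 24.8% fell by edgeR. *Kif24*, which acts at the mother centriole to restrain cilium formation, measured 22.6, 21.4 and 23.8 CPM in fresh and 34.2, 37.2 and 31.9 CPM in RNA-Best libraries. It rose by 0.60 ± 0.06 on the log2 scale (SE, adjusted p = 8.14e-10, edgeR), with no overlap of the groups. *Kif3a* and *Kif3b* pair as the heterodimeric motor of transport into the cilium, and both rose. *Kif3a* measured 60.4, 58.9 and 54.0 CPM in fresh and 65.4, 67.1 and 68.4 CPM in RNA-Best libraries, which gave a log2 fold change of 0.20 ± 0.05 (SE, adjusted p = 5.19e-04, edgeR). *Kif3b* measured 139, 137 and 128 CPM in fresh and 150, 154 and 157 CPM in RNA-Best libraries, which gave a log2 fold change of 0.18 ± 0.04 (SE, adjusted p = 4.99e-05, edgeR). Fresh replicate 3 was the lowest library for both subunits. *Kif3c*, the alternative partner of *Kif3a*, had a log2 fold change of 0.02 ± 0.05 (SE) and did not pass.

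*Kif19a*, the most abundant of this list per length, measured 109, 111 and 111 CPM in fresh and 106, 106 and 103 CPM in RNA-Best libraries. The change of -0.07 ± 0.04 on the log2 scale (SE, adjusted p = 0.120, edgeR) did not pass although the groups did not overlap. *Kif26a*, a family member thought to lack motor activity, measured 18.7, 18.7 and 17.2 CPM in fresh and 20, 20.1 and 22.3 CPM in RNA-Best libraries, and the log2 fold change came to 0.19 ± 0.07 (SE, adjusted p = 0.0284, edgeR). That call was lost without fresh replicate 3 (adjusted p = 0.0511) and without RNA-Best replicate 3 (0.335), by DESeq2 (0.107), without the filter (0.164) and on thinned counts (0.528). *Kif26b* and *Kif27* had log2 fold changes of 0.55 ± 0.23 and 0.54 ± 0.30 (SE) on 9 to 70 counts per library, and neither passed by edgeR (adjusted p = 0.0517 and 0.134). For *Kif26b* every RNA-Best library lay above every fresh library, and limma voom called it higher (adjusted p = 0.0204) where DESeq2 did not (0.157). *Kif7*, a regulator of Hedgehog signalling at the cilium tip, *Kif9*, *Kif17* and *Kif2a* did not pass either, with log2 fold changes between -0.12 and 0.21.

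The changes varied with gene length. Exonic length, the merged length of all annotated exons, had a median of 6938 bases in the tested kinesin genes and of 3924 bases in all tested genes. Spearman's rho between log2 fold change and exonic length was 0.71 over the 36 members and 0.52 over 14689 genes. With the GC content of the longest transcript rho was -0.36 over the members and -0.32 over all genes. These are descriptions across genes of the same 6 libraries, and genes are not independent replicates.

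**Figure D3:**
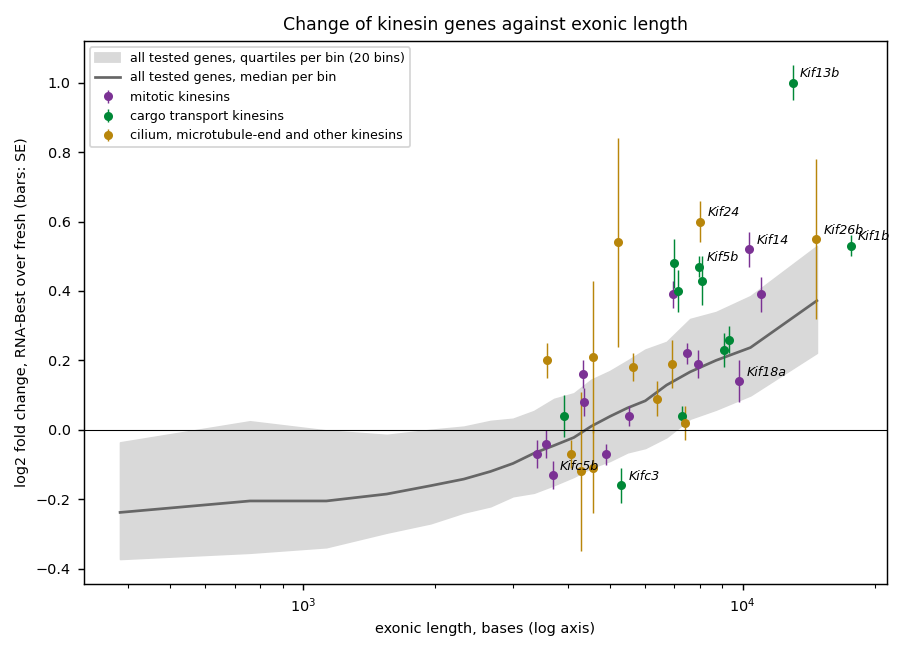
Log2 fold change (RNA-Best over fresh, bars are SE) of the 36 tested kinesin genes against exonic length in bases on a log axis, with the median and quartiles of all tested genes in 20 bins of length. Members of 8000 bases or more lie between 0.14 and 1.0, and members under 5000 bases between -0.13 and 0.21.

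Of the 10 members with 8000 exonic bases or more, 9 rose and 0 fell by edgeR, with a median log2 fold change of 0.48. Among all 2299 tested genes of that length 69.5% rose and 3.26% fell, with a median of 0.26. Of the 14 members from 5000 to under 8000 bases, 8 rose and 1 fell (median 0.19), where 40.0% of all genes of that length rose and 11.9% fell (median 0.10). Of the 12 members under 5000 bases, 2 rose and 1 fell (median -0.05), where 10.2% of all genes of that length rose and 34.7% fell (median -0.10). *Kif3a* and *Kif20a* were the short genes that rose, and *Kifc5b* was the one that fell.

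With an offset for exonic length fitted in each library, 12 of the 36 rose, 5 fell and the median log2 fold change was 0.05, against 40.8% of all tested genes called, 15.6% higher and 25.2% lower. The median of all tested genes was -0.04 in this fit. Of the 21 genes called without the offset, 14 were called in the same direction with it and 0 in the opposite direction by edgeR. The 7 genes no longer called were *Kif11*, *Kif15*, *Kif18a*, *Kif23*, *Kif1a*, *Kif16b* and *Kif26a*, all of them higher without the offset. *Kif22*, *Kif1c* and *Kif3c*, not called without an offset, were called lower with it, at -0.12, -0.12 and -0.14 on the log2 scale. With an offset for GC content *Kif1c* was called higher instead (0.09, adjusted p = 0.0209, edgeR). *Kif13b* kept the largest rise, with a log2 fold change of 0.66 (adjusted p = 2.38e-12, edgeR). *Kif18a* stood at -0.10 with the offset and did not pass. *Kif24* stood at 0.42, *Kif5a* at 0.34, *Kif5b* at 0.28, *Kif14* at 0.26 and *Kif1b* at 0.11 on the log2 scale, and all of these still passed. In the mitotic list 3 genes rose and 2 fell with the offset (median 0.01), in the cargo list 6 rose and 2 fell (median 0.11), and in the cilium and other list 3 rose and 1 fell (median 0.07). The part of transcript length in the differences was not tested beyond these fits.

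**Figure D4:**
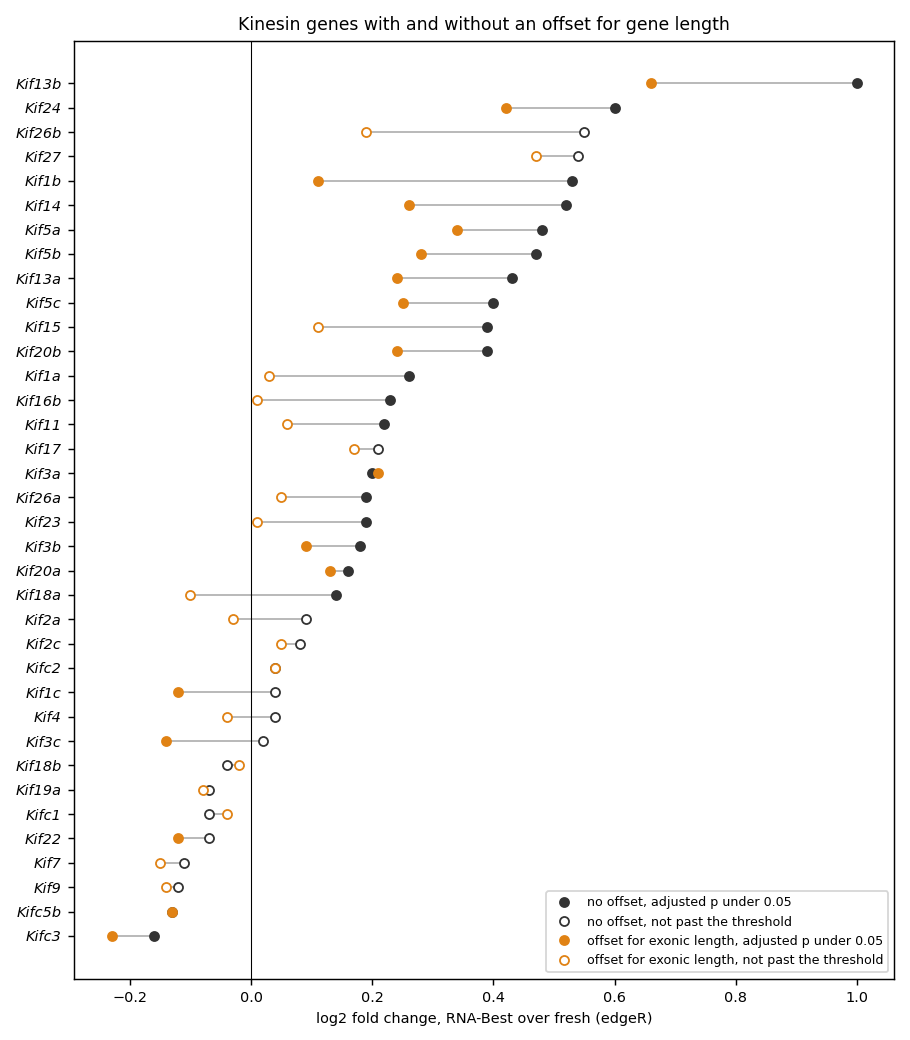
Log2 fold change (RNA-Best over fresh, edgeR) of the 36 tested kinesin genes without and with an offset for exonic length, with filled points where the adjusted p was under 0.05. The median moves from 0.19 to 0.05 (from -0.01 to -0.04 over all tested genes), and *Kif13b* stays farthest to the right at 0.66 with the offset.

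Genes that work with kinesins were compared as lists, beside the 26.0% of all tested genes called higher and 24.8% called lower, or 15.6% and 25.2% with the length offset. Of 18 kinesin partners, which are adaptors, light chains, cargo links and the kinetochore motor *Cenpe*, 3 rose and 5 fell, with a median log2 fold change of -0.02. *Mapk8ip3*, a scaffold that joins kinesin to vesicles, and *Cenpe*, a kinesin whose symbol is outside the rule, rose by 0.40 and 0.37 on the log2 scale (adjusted p = 2.41e-10 and 3.54e-08, edgeR). With the length offset *Mapk8ip3* stood at 0.03 and lost its call (adjusted p = 0.594, edgeR), and *Cenpe* stood at 0.17 and still passed. *Fez1*, an adaptor of the heavy chain, and *Klc4*, a kinesin light chain, had log2 fold changes of -0.30 and -0.19 (adjusted p = 0.00925 and 6.97e-04, edgeR). The call of *Fez1* was lost without RNA-Best replicate 3 (adjusted p = 0.137) and on thinned counts (0.221), and that of *Klc4* with an offset for GC content (0.137). With the length offset 2 of the list rose and 6 fell.

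Against the same shares of all tested genes (26.0% higher, 24.8% lower), 7 of 24 tested genes of dynein and dynactin, the machinery of transport toward microtubule minus ends, rose and 9 fell, with a median log2 fold change of -0.06. *Dync1h1*, the dynein heavy chain, rose by 0.43 but stood at 0.04 with the length offset and lost its call (adjusted p = 0.242, edgeR). *Bicd1*, a cargo adaptor, rose by 0.31 but was called lower with the length offset (-0.21, adjusted p = 7.17e-04, edgeR). *Dynlrb1*, a dynein light chain, and *Dctn3*, a dynactin subunit, had log2 fold changes of -0.32 and -0.31, and both passed. With the offset 1 gene of this list rose and 11 fell. Of 20 spindle and mitosis genes that are not kinesins, 7 rose and 6 fell, with a median log2 fold change of -0.01. *Mki67*, a coat protein of mitotic chromosomes, and *Ect2*, an activator of cytokinesis, rose by 0.48 and 0.28. *Cdk1*, the mitotic kinase, and *Spc24*, a kinetochore subunit, had log2 fold changes of -0.22 and -0.24, and both passed. With the offset 4 genes of this list rose and 6 fell.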

How the data were processed

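Bulk RNA-seq of LβT2 cells was used, with 3 fresh and 3 RNA-Best libraries. The authors aligned single reads to mm10 (GRCm38) with STAR 2.5.1b and counted them with featureCounts 1.5.0-p1, and they deposited estimated counts for each gene without scaling. Per library, 9.36% to 16.3% of entries differed from an integer by over 0.001. The setting that divided reads and the use of strand are not given in the sources used here.

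Counts were rounded and tested in R 4.3.3 with edgeR 4.0.16 (quasi-likelihood test, TMM, filterByExpr with a minimum count of 10, Benjamini-Hochberg adjustment over all tested genes, threshold 0.05). Alternatives were DESeq2 1.42.0, limma 3.58.1 voom, another scaling, other filters, loess offsets (span 0.5) for length or GC content, a replicate block, thinning, a test against a 1.2-fold change (glmTreat) and leaving out each library. Lengths came from a later GENCODE release on GRCm38, which matched 46574 of 47069 genes, and promoters from RefSeq.

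Every member may be named, and values per library are given for the 3 most abundant and the 3 most changed called members of each role list, with *Kifc5b* and *Kifc3* added after their values were seen. Of the other lists, the 2 highest and 2 lowest called genes are named. The gene family, its rule on symbols and the lists were chosen with earlier results of these data known. Libraries are not stated to come from separate cultures, so p-values measure the spread between libraries, which may be technical. Depth was 4909418 to 47438746 counts, and limits on a count of 0 (3 counts) cover counting error only. A gene that overlaps a member is not reported here.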

Additional observations from a re-analysis of the deposited data

How the results depend on the processing

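The count of called kinesin genes (21) stayed within 1.5 times under each alternative except glmTreat against a 1.2-fold change, which gave 10, all higher. The higher calls (19) were 12 with the length offset and 12 with the replicate block and length offset. The lower calls (2) were 5 without a filter (*Kifc1*, *Kif22*, *Kifc5b*, *Kif19a* and *Kifc3*), 5 with the length offset and 4 with the replicate block and length offset. With the GC offset they were 1 (*Kif22*, and neither *Kifc5b* nor *Kifc3*). They were 0 by DESeq2 (2 members at an unadjusted p under 0.05), 0 by edgeR on thinned counts (1) and 0 by glmTreat (0). Leaving out 1 library gave 18 to 21 called members, 17 to 19 higher and 0 to 2 lower, with 0 without fresh replicate 2 or RNA-Best replicate 3 (each 3 at an unadjusted p under 0.05, edgeR) and 1 without RNA-Best replicate 1. Of the 21 calls, 17 held with each single library left out, and *Kif26a*, *Kifc5b*, *Kif18a* and *Kifc3* lost theirs, as they did by DESeq2 (adjusted p = 0.107, 0.071, 0.152 and 0.101). Thinning left 5 called kinesin partners (8 without), and glmTreat 3 partners, 1 dynein and dynactin gene (16 without) and 1 spindle gene (13 without). The mitotic to cargo ratio was 3.77 per kb of exonic length, and 3.99 per kb of the longest coding transcript, an alternative chosen after seeing the data. Both kept the members that did not pass the filter. Log2 fold changes that turned sign included that of *Bicd1* (-0.21 with the length offset, -0.20 with the replicate block and length offset). With the length offset, *Kif18a*, *Kif3c*, *Kif4* and *Kif2a* also turned (-0.10, -0.14, -0.04 and -0.03). *Kif1c* turned with the length offset (-0.12), with the block added (-0.13) and without a filter (-0.00). *Kifc2* turned without a filter (-0.01), without fresh replicate 1 (-0.03) and when RNA-Best replicate 2 was left out (-0.02). The other fits of *Kifc2* with 1 library left out gave up to 0.12. *Kifc1* (0.02) and *Kif19a* (0.06) turned with the GC offset. Genes of the partner, dynein and spindle lists that are not named here also turned sign with the length offset. Some of dynein and dynactin were called higher without it and lower with it. The cause was not tested, but without a filter the median of all genes also moved, from -0.007 to -0.064. Same-numbered libraries did not deviate together (correlations -0.0084, 0.0122 and -0.0077), and the fit with the replicate block called 22 members, 19 of them higher, gaining *Kif22* (lower, adjusted p = 0.0391) and *Kif26b* (higher) and losing *Kif18a*. Depth limits the shallower RNA-Best libraries most.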
